A study of Sorghum bicolor with 16 samples.

Results

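Auxin signalling and transport genes were described here across roots of 2 sweet sorghum strains, with and without salt stress. The members are the genes of the expression table whose Gene Ontology (GO) annotation names the auxin-activated signalling pathway, auxin polar transport or auxin efflux. Genes that also carry the abscisic acid-activated or the ethylene-activated signalling term were left out, which removed 19 of 162 genes. The remaining 143 genes are the members, out of 29033 genes in the table. The signalling term was carried by 78 of them, polar transport by 64 and efflux by 16, and 14 carried more than 1 of these terms. The rule reads annotation and no measured value.

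Messenger RNA can carry a methyl group on adenosine (N6-methyladenosine, m6A), and m6A-seq locates it by comparing RNA fragments enriched with an m6A antibody with unenriched fragments. Roots were taken at the three-leaf phase, under control and salt conditions, from M-81E, a strain the labels call salt-tolerant, and from Roma, which they call salt-sensitive. Each of the 4 groups of strain and treatment had 2 antibody samples and 2 unenriched samples, 16 in all, called biological replicates in the labels. Expression was available as FPKM, a count of fragments adjusted for transcript length and for the size of the library, in 8 libraries, and peaks as 1 list per group. The sources used here do not give the salt dose, the length of the treatment or whether plants were pooled. They leave unsettled whether the FPKM values came from antibody or unenriched fragments: the sample descriptions place the column names with the antibody samples, while the names of the peak lists use them for what the antibody samples were compared with. A difference in expression and a difference in enrichment therefore cannot be told apart in them. In bulk roots, fewer cells of a type and less RNA per cell cannot be told apart either.

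Auxin enters cells through proton symporters and leaves them through efflux carriers, whose placement in the membrane gives the hormone its direction of flow through the root. Inside the nucleus auxin joins F-box receptors to Aux/IAA repressors, the repressors are degraded, and the auxin response factors they held act on their target genes. In roots these steps shape meristem activity, lateral root formation and bending.

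Summed FPKM per library lay between 325987 and 377097, and 14477 to 16006 genes per library reached an FPKM of 1; both minima belong to M-81E control replicate 2. Of the 21 members called between strains below, this library held the lowest of the 8 values in 6, SORBI_3003G327500, SORBI_3001G094800 and SORBI_3004G240900 among them, and M-81E control replicate 1 in 7. Without replicate 2, the median log2 difference of Roma from M-81E in control was 0.385 in the members, beside 0.341 over all tested genes. Read totals were not used here, and depth read from low FPKM values ranged from 0.801 to 1.32 relative to M-81E control replicate 1. Members differed between replicates with an SD in log2(FPKM + 1) of 0.627 in M-81E control and 0.506 in M-81E salt, against 0.317 in Roma control and 0.350 in Roma salt. Genes annotated to root hairs, lateral roots or the Casparian strip, 150 of them with 13 members included, summed to 2998 to 3471 FPKM in M-81E and 4088 to 4354 in Roma. Genes of photosynthesis, 106 of them and 25 with a mean FPKM of at least 1, summed to 317.4 and 320.4 in M-81E control. They summed to 249.9 and 290.2 in M-81E salt, 207.5 and 216.0 in Roma control, and 276.1 and 291.9 in Roma salt. Their sums were thus lower in Roma in control and overlapped between strains in salt. Genes of cell division, 88 of them, summed to 1482 to 1879 FPKM in M-81E and to 2379 to 2737 in Roma, ranges that do not overlap. None of these marker genes was listed at 0 in all 8 libraries. The root and cell division sums, and in control the photosynthesis sum, therefore moved with strain, as do the strain results below. Their part in those results was not tested.

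Of the 143 members, 83 had a mean FPKM of at least 1 over the 8 libraries and were tested together with all other such genes, 16280 in total. The other 60 were below that level, none at 0 in every library, and 15 members had a mean of at least 50. By the annotation in the table, 5 members are F-box receptors and all 5 were tested. The tested members of the other classes were 6 of 7 Aux/IAA repressors, 20 of 25 auxin response factors, 7 of 14 efflux transporters and 5 of 8 auxin:proton symporters. A further 5 of 7 proton-pumping pyrophosphatases, 4 of 23 small auxin up RNA and organ growth genes, 14 of 22 other polar transport genes and 17 of 32 other signalling genes were tested. The whole table holds 27 genes with the KEGG orthology entry for Aux/IAA proteins and 38 with that for response factors. The members are therefore only part of these families. The most abundant members were SORBI_3007G108100, annotated as a regulator of auxin polar transport, with a mean FPKM of 197, and the proton-pumping pyrophosphatase SORBI_3010G060600, with 183. The most abundant response factor, SORBI_3003G411900, had a mean of 101 and stayed between 83.9 and 123 in all 8 libraries.

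**Figure D1:**
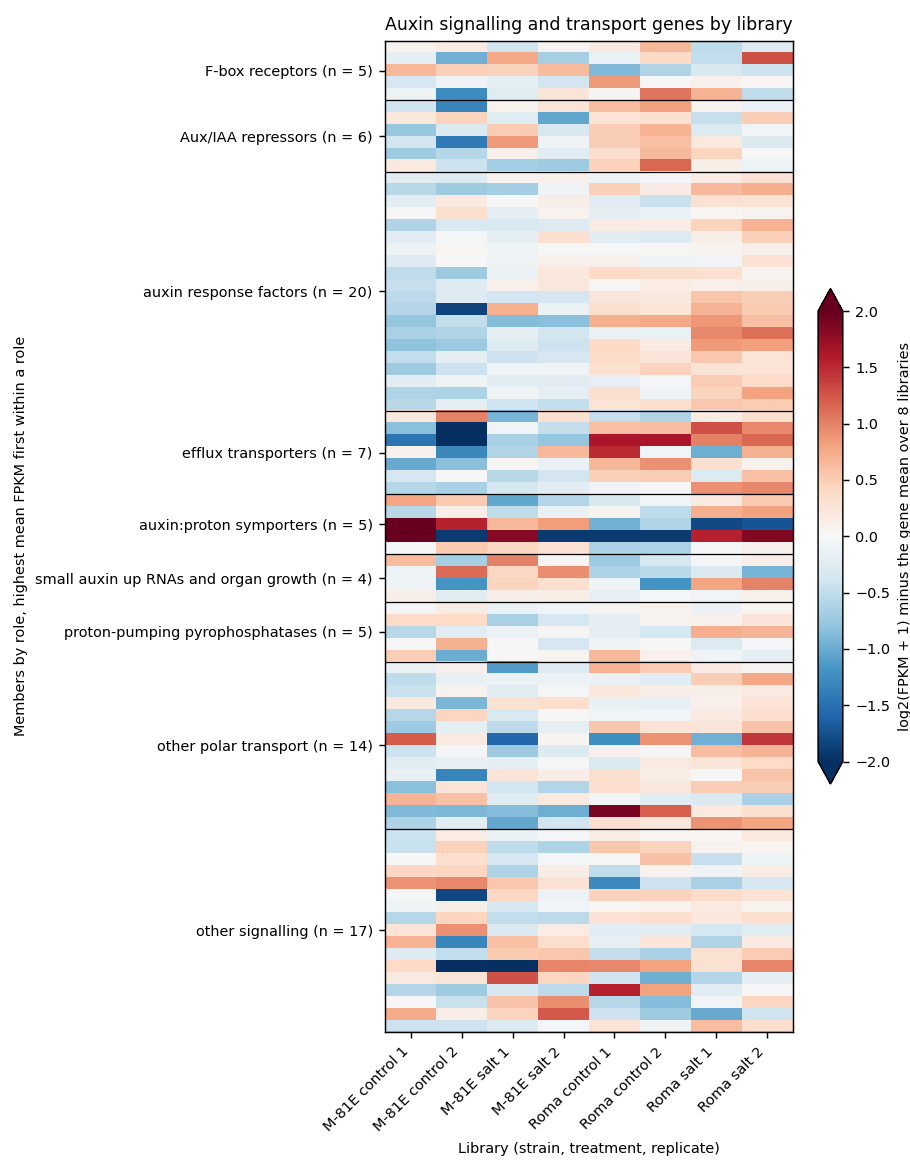
Heat map of the 83 tested members (rows, grouped by role, with the highest mean FPKM first in each role) in the 8 libraries (columns). Colour is log2(FPKM + 1) minus the gene's mean over the libraries, with red above and blue below that mean; the response factor rows are mostly red in the Roma columns, and M-81E control replicate 2 holds many of the deepest blue cells.

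The comparison of Roma with M-81E asked which members differ between the strains. The efflux transporter SORBI_3003G327500 and the response factors SORBI_3008G169400 and SORBI_3009G231800 were higher in Roma, and the symporter SORBI_3002G108800 and the receptor SORBI_3005G126600 were lower, in control and in salt alike. In control roots 14 of 83 members differed, 11 higher and 3 lower in Roma, where 12.1% of all tested genes did, 8.35% higher and 3.76% lower (limma, Benjamini-Hochberg adjusted p under 0.05). In salt 12 differed, 10 higher and 2 lower, against 8.42% of all tested genes, 6% higher and 2.41% lower. The pair of contrasts called 21 genes in all, 5 of them in both, 9 in control alone and 7 in salt alone, and 19 of the 21 had the same sign in both. These calls rest on 2 libraries per group: with any 1 library left out, 103 of 208 repeats of the 26 calls did not pass, and with only the groups of a contrast fitted 8 of the 26 passed. The median log2 difference of the members was 0.34 in control and 0.32 in salt, beside 0.30 and 0.29 over all tested genes. These medians of all genes became 0.03 and 0.05 under quantile scaling, which gave 7 members higher and 5 lower in control and 4 higher and 3 lower in salt. Log2 differences between strains below are as fitted, and the difference less the median of all genes follows where a gene is described in full.

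**Figure D2:**
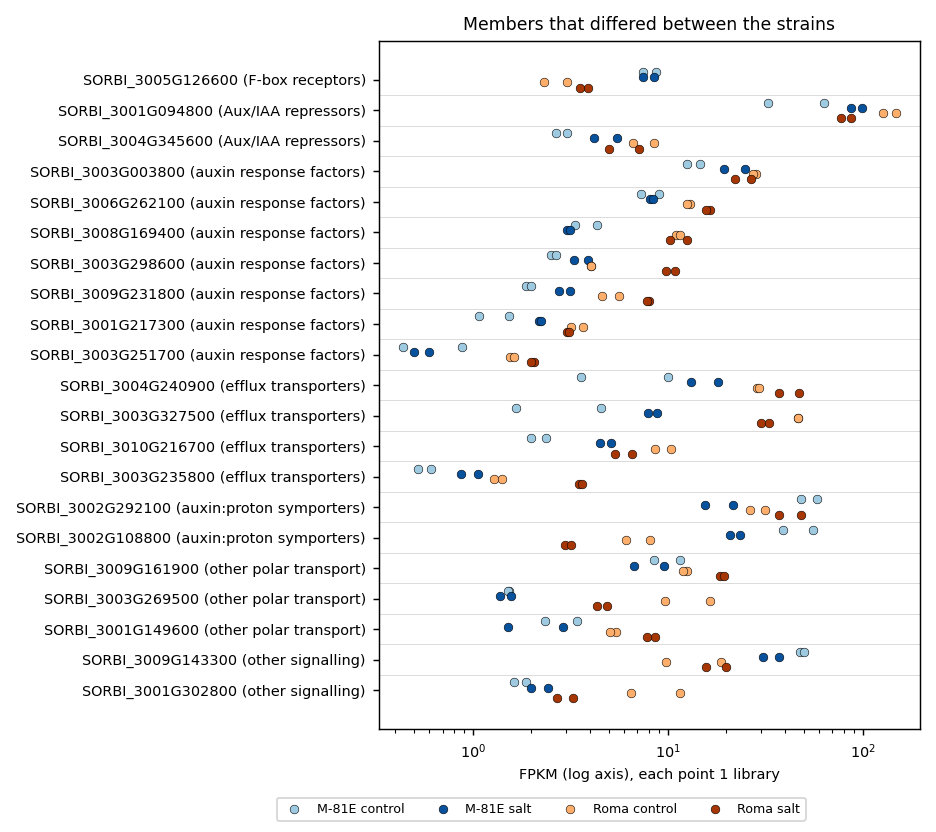
FPKM (log axis) of the 21 members that differed between the strains in control or in salt, 1 point per library, coloured by strain and treatment. SORBI_3002G108800 lies at 20.8 to 55.9 in M-81E and at 2.97 to 8.15 in Roma, and SORBI_3003G327500 at 1.66 to 8.78 in M-81E and 30.1 to 46.9 in Roma.

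The F-box receptors bind auxin together with an Aux/IAA protein. SORBI_3005G126600 had FPKM values of 8.71 and 7.48 in M-81E control, 7.45 and 8.54 in M-81E salt, 2.31 and 3.04 in Roma control, and 3.89 and 3.54 in Roma salt. All 4 Roma libraries were below all 4 M-81E libraries. The log2 difference was -1.31 ± 0.20 (SE, n = 2 per group) in control (limma adjusted p = 0.0164) and -0.93 ± 0.20 in salt (adjusted p = 0.0476), or -1.61 and -1.22 less the median of all genes. The other receptors did not pass between strains. SORBI_3006G056000, with the highest mean of the class, had 26.1 and 28.0 in M-81E control, 19.0 and 25.9 in M-81E salt, 28.3 and 40.0 in Roma control, and 17.2 and 20.7 in Roma salt. In both strains its salt libraries lay below its control libraries, but neither salt change passed (limma adjusted p = 0.648 in M-81E and 0.298 in Roma).

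The Aux/IAA repressors hold response factors inactive until auxin triggers their degradation. The most abundant, SORBI_3001G094800, had 63.1 and 32.7 FPKM in M-81E control, 87.6 and 99.8 in M-81E salt, 128 and 148 in Roma control, and 87.7 and 77.1 in Roma salt. Its M-81E salt libraries were above the M-81E controls, its Roma salt libraries were below the Roma controls, and the salt libraries of the strains overlapped. In control it was higher in Roma by a log2 of 1.58 ± 0.32 (SE, n = 2 per group; limma adjusted p = 0.0329), or 1.28 less the median of all genes, and in salt the difference was -0.18 (adjusted p = 0.740). SORBI_3004G345600 was also higher in Roma control, at 6.65 and 8.53 against 2.69 and 3.06 FPKM, a log2 of 1.14 ± 0.25 (adjusted p = 0.0384). SORBI_3008G157000 and SORBI_3001G161601 had strain differences in control of 1.13 and 1.44 that did not pass (adjusted p = 0.0737 and 0.0899). SORBI_3008G157000 follows SORBI_3008G156900 in the gene numbering, and the sources used here do not say how reads of near-identical copies were counted.

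The auxin response factors are the transcription factors of the pathway. In control 17 of 20 tested response factors had a positive Roma difference. Of these, 4 passed, all higher in Roma, where 8.35% of all tested genes passed as higher. In salt 19 of 20 were positive and 5 passed, all higher, where 6% of all tested genes passed as higher. These counts leave out SORBI_3006G045901, below the tested level, with 0.636 to 1.71 FPKM in M-81E and 0 in every Roma library. The class median was 0.60 in control and 0.51 in salt, beside 0.30 and 0.29 over all tested genes, of which 66.2% and 66.9% were positive. SORBI_3008G169400 had 3.34 and 4.35 FPKM in M-81E control, 3.06 and 3.15 in M-81E salt, 11.1 and 11.6 in Roma control, and 12.6 and 10.3 in Roma salt. Every Roma library was above every M-81E library, by a log2 of 1.35 ± 0.20 in control (limma adjusted p = 0.0151) and 1.60 ± 0.20 in salt (adjusted p = 0.0105; SE, n = 2 per group), or 1.06 and 1.31 less the median of all genes. SORBI_3009G231800 likewise kept the strains apart, with 1.87, 1.99, 3.17 and 2.78 in the M-81E libraries and 5.64, 4.61, 8.06 and 7.86 in the Roma libraries. Its differences were 1.06 (adjusted p = 0.0235) in control and 1.17 (adjusted p = 0.0208) in salt. SORBI_3003G003800 (0.99) and SORBI_3001G217300 (0.94) passed in control, and SORBI_3003G298600 (1.30), SORBI_3003G251700 (0.97) and SORBI_3006G262100 (0.88) passed in salt. SORBI_3003G251700, with 0.440 to 0.876 FPKM in M-81E and 1.55 to 2.07 in Roma, reached the tested level through Roma alone, where it is high, so its place among the 5 is no support for a direction of the class; 2 of the 20 tested response factors have a mean FPKM under 1 in M-81E.

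Of the abundant response factors, SORBI_3004G178500 had 24.3 to 28.0 FPKM over all 8 libraries and SORBI_3010G073600 had 21.2 to 31.7. SORBI_3006G089500 had 48.3 and 43.5 in M-81E control, 44.5 and 68.3 in M-81E salt, 99.9 and 80.7 in Roma control, and 113 and 120 in Roma salt. All of its Roma values were above all of its M-81E values, but neither difference passed (limma adjusted p = 0.0621 in control and 0.0572 in salt).

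Efflux transporters export auxin from the cell or move it across inner membranes. SORBI_3003G327500 had 4.57 and 1.66 FPKM in M-81E control, 8.78 and 7.97 in M-81E salt, 46.4 and 46.9 in Roma control, and 30.1 and 33.2 in Roma salt. The groups were fully separate, in the order M-81E control, M-81E salt, Roma salt, Roma control. The Roma difference was a log2 of 3.63 ± 0.35 in control (limma adjusted p = 0.00422) and 1.80 ± 0.35 in salt (adjusted p = 0.0348; SE, n = 2 per group), or 3.33 and 1.51 less the median of all genes. SORBI_3010G216700 had 2.00 and 2.38 in M-81E control, 5.14 and 4.50 in M-81E salt, 8.58 and 10.4 in Roma control, and 6.56 and 5.39 in Roma salt, the same order of groups. It was higher in Roma control by 1.71 ± 0.21 (adjusted p = 0.00810), and in salt the difference was 0.26 (adjusted p = 0.445). SORBI_3004G240900 was higher in Roma control, at 28.9 and 29.3 against 10 and 3.61 FPKM (2.08 ± 0.42, adjusted p = 0.0322). SORBI_3003G235800 was higher in Roma salt, at 3.49 and 3.64 against 0.870 and 1.06 (1.22 ± 0.19, adjusted p = 0.0182). Its mean over the 4 M-81E libraries was 0.765, so it too was tested through its level in Roma, and its call is given as a value and not as support. These are the 2 called members of that kind.

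The most abundant efflux gene, SORBI_3001G415300, is annotated as an ATP-driven transporter of basipetal and acropetal auxin transport. It had 75.7 and 131 FPKM in M-81E control, 33.9 and 81.4 in M-81E salt, 47.3 and 42.6 in Roma control, and 72.7 and 81.6 in Roma salt. Its Roma controls were below its M-81E controls, and its salt libraries overlapped between strains, with no contrast passing.

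The auxin:proton symporters bring auxin into the cell. SORBI_3002G108800 had 55.9 and 39.2 FPKM in M-81E control, 20.8 and 23.6 in M-81E salt, 6.12 and 8.15 in Roma control, and 2.97 and 3.18 in Roma salt. All groups were separate, with M-81E above Roma and control above salt in each strain. The strain difference was -2.57 ± 0.25 in control (limma adjusted p = 0.00422) and -2.51 ± 0.25 in salt (adjusted p = 0.00462; SE, n = 2 per group), or -2.87 and -2.79 less the median of all genes. All 5 tested symporters had a negative strain difference in control, with a class median of -0.87, and this gene was the 1 that passed. That count includes SORBI_3004G210900, listed at 19.1 and 0 in M-81E control and at 0 and 0 in Roma control. In salt 3 of 5 differences were positive, with a class median of 1.08, and 1 gene passed in each direction. SORBI_3004G210900, listed at 12.3 and 0 in M-81E salt and at 10.1 and 12.6 in Roma salt, is among the positive ones and enters that median.

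SORBI_3002G292100, another symporter, had 58.2 and 48.1 FPKM in M-81E control, 15.5 and 21.6 in M-81E salt, 26.3 and 31.7 in Roma control, and 37.2 and 48.2 in Roma salt. Salt libraries lay below controls in M-81E and above them in Roma. In salt it was higher in Roma by a log2 of 1.17 ± 0.26 (SE, n = 2 per group; limma adjusted p = 0.0472), and in control the difference was -0.85 (adjusted p = 0.0794). The symporter SORBI_3004G210900 was listed at 0 in 4 libraries, at 19.1 and 0 in M-81E control, 12.3 and 0 in M-81E salt, 0 and 0 in Roma control, and 10.1 and 12.6 in Roma salt. It is given as listed, with no fold.

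Proton-pumping pyrophosphatases acidify the vacuole and are annotated to auxin polar transport. SORBI_3010G060600 had 180 and 202 FPKM in M-81E control, 167 and 176 in M-81E salt, 190 and 192 in Roma control, and 168 and 187 in Roma salt. Salt libraries lay below controls in each strain, and no contrast passed (log2 salt change -0.15 in M-81E and -0.11 in Roma). SORBI_3010G205500 had 126 and 127 in M-81E control, 61.1 and 75.5 in M-81E salt, 84.7 and 101 in Roma control, and 103 and 115 in Roma salt. Its M-81E salt libraries were the lowest of the 8, with a salt change of -0.88 in M-81E that did not pass (limma adjusted p = 0.197).

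Among the other polar transport genes, SORBI_3003G269500, annotated as a monooxygenase of secondary shoot formation, had 1.54 and 1.51 FPKM in M-81E control, 1.57 and 1.38 in M-81E salt, 16.5 and 9.66 in Roma control, and 4.35 and 4.86 in Roma salt. Every Roma library was above every M-81E library, and the difference in control was 2.44 ± 0.27 (SE, n = 2 per group; limma adjusted p = 0.00628), or 2.14 less the median of all genes; in salt it was 1.18 (adjusted p = 0.0524). The next gene in the numbering, SORBI_3003G269600, has 5.50 and 1.87 in M-81E control and 8.17 and 6.86 in Roma control and did not pass (adjusted p = 0.166). In salt SORBI_3001G149600, a regulator of auxin polar transport and root meristem growth, was higher in Roma at 8.62 and 7.85 against 1.52 and 2.92 (1.55 ± 0.28, adjusted p = 0.0277). SORBI_3009G161900, annotated to protein localization in auxin transport, was also higher there, at 18.6 and 19.5 against 6.73 and 9.56 (1.15 ± 0.24, adjusted p = 0.0425).

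Other signalling members gave 2 calls, both in control. SORBI_3009G143300, an F-box component of an SCF ubiquitin ligase annotated to lateral root formation, had 47.8 and 49.9 FPKM in M-81E control, 37.3 and 31.0 in M-81E salt, 9.81 and 18.7 in Roma control, and 15.7 and 19.9 in Roma salt. All Roma libraries were below all M-81E libraries, by -1.77 ± 0.32 in control (SE, n = 2 per group; limma adjusted p = 0.0241) and -0.91 in salt (adjusted p = 0.129). SORBI_3001G302800, annotated as a nitrate transporter, was higher in Roma control at 11.6 and 6.51 against 1.87 and 1.62 (1.83 ± 0.29, adjusted p = 0.0169). The members of the small auxin up RNA and organ growth class were mostly near 0, with a class median of mean FPKM of 0.0567 and a highest mean of 13.6, in SORBI_3006G216700. None of its 4 tested members passed in any contrast. SORBI_3010G224600 of this class had 1.24 to 4.25 FPKM in M-81E and 0.263 to 0.951 in Roma, and SORBI_3006G216500 had 0 to 2.12 and 0 to 3.54. SORBI_3006G218300, a transcription factor annotated to lateral root development, had 4.49 and 4.82 in M-81E control, 10.7 and 5.57 in M-81E salt, 2.68 and 1.47 in Roma control, and 2.25 and 3.27 in Roma salt. All of its Roma values were below all of its M-81E values, but neither difference passed (-0.91 and -1.24, adjusted p = 0.141 and 0.0867).

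The salt comparisons asked which members respond to salt in each strain and whether the response differs between them. No member passed in M-81E, in Roma or in the difference of the responses, where 0.491%, 0.473% and 0.178% of all tested genes did (limma). In simulated data the fit found 14% of Roma salt changes with a log2 of 1 and 38% with a log2 of 2. Changes of such size can therefore be missed. At an unadjusted p under 0.05, 11 members had positive and 5 negative values in M-81E, 13 and 6 in Roma, and 6 and 9 in the difference. These are 19.3%, 22.9% and 18.1% of the members, beside 12.8%, 11.8% and 8.73% of all tested genes. The smallest adjusted p was 0.116 in M-81E, for the symporter SORBI_3002G292100 (-1.48 ± 0.26), and 0.0744 in Roma, for the response factor SORBI_3003G298600 (1.17 ± 0.18). For the difference it was 0.173, again for SORBI_3002G292100 (2.02 ± 0.36; SE, n = 2 per group). The median salt change of the members was 0.11 in each strain, beside -0.05 in M-81E and -0.03 in Roma over all tested genes. The salt libraries lay wholly above the controls in 25 members and wholly below in 17 in M-81E, where 18.3% and 19.4% of all tested genes did. In Roma the counts were 36 and 20, beside 27.2% and 32.3%.

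Without M-81E control replicate 1, 15 members passed in M-81E, 9 higher and 6 lower with salt, or 18.1% of the members beside 19.1% of all tested genes. For the difference 3 passed, or 3.61% beside 6.69%. The remaining M-81E control is then replicate 2 alone, and the members' shares are near or below those of all genes. Without replicate 2 no member passed in M-81E (limma), where 0.706% of all tested genes did. Without either of these libraries, which are not in the Roma contrast, 2 members passed as higher with salt in Roma, SORBI_3003G298600 and SORBI_3004G068300, or 2.41% beside 1.9% and 1.91% of all tested genes.

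**Figure D3:**
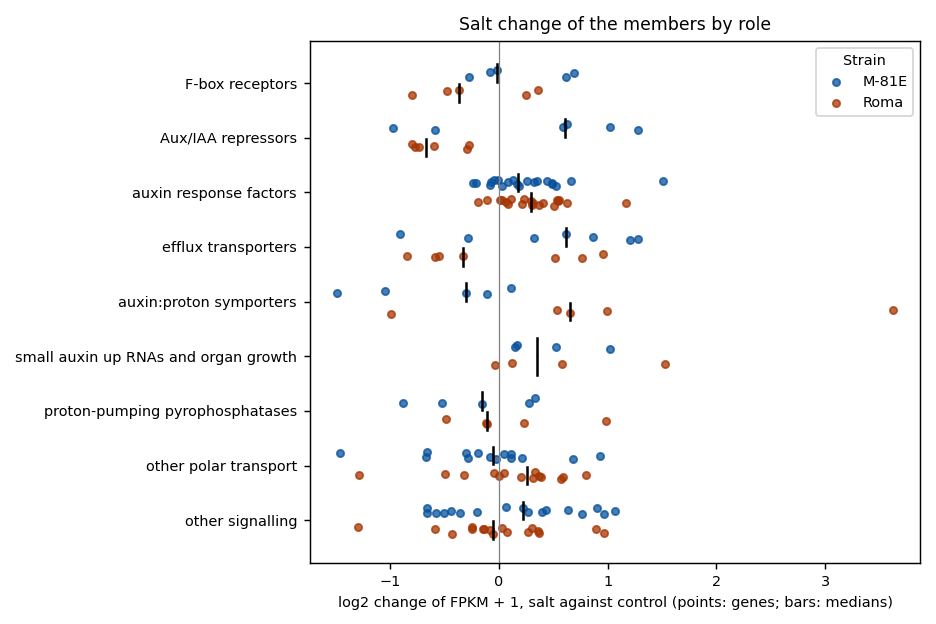
Salt change (log2 of FPKM + 1, salt against control) of each tested member by role, with M-81E in blue, Roma in brown and black bars at class medians. All 6 Aux/IAA points of Roma lie below 0 and 4 of 6 of M-81E lie above; no point passed the test.

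The 7 Aux/IAA members are part of the 27 such genes in the table. Salt values in Roma were negative in 6 of 6 tested members, with a median of -0.67. In M-81E 4 of 6 were positive, with a median of 0.61. Over all tested genes 46.9% were positive in Roma and 45.3% in M-81E. The median difference of the responses was -1.14, and 4 of 6 had an unadjusted p under 0.05 but none passed. SORBI_3001G094800 had a salt change of 1.02 ± 0.32 in M-81E (limma adjusted p = 0.304) and -0.74 ± 0.32 in Roma (adjusted p = 0.466; SE, n = 2 per group), and the difference of -1.76 did not pass (adjusted p = 0.372). SORBI_3001G161601 had 7.31 and 3.06 FPKM in M-81E control, 18.5 and 9.25 in M-81E salt, 14.1 and 15.4 in Roma control, and 11.4 and 7.78 in Roma salt. SORBI_3009G069700 had 4.35 and 2.45 in M-81E control, 1.88 and 1.86 in M-81E salt, 5.43 and 9.33 in Roma control, and 4.05 and 3.34 in Roma salt, below control in both strains (Roma change -0.80, adjusted p = 0.415). SORBI_3008G156900 likewise had salt below control in M-81E, with 24.5 and 29.2 in control and 17.6 and 9.69 in salt, a change of -0.98 that did not pass (adjusted p = 0.387).

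In the response factors 18 of 20 salt values were positive in Roma, with a median of 0.30, and 14 of 20 in M-81E, with a median of 0.18, and none passed. SORBI_3003G298600 had 4.03 and 4.05 FPKM in Roma control and 9.77 and 10.9 in Roma salt, beside 2.53 and 2.67 in M-81E control and 3.88 and 3.31 in M-81E salt. Its salt libraries were above its controls in both strains. SORBI_3004G221400, whose annotation includes root cap development, had the largest positive salt value of the 83 members in M-81E, with 4.67 and 1.36 FPKM in control and 13.0 and 6.78 in salt, a log2 of 1.51 ± 0.47 that did not pass (limma adjusted p = 0.296; SE, n = 2 per group).

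In the transport classes, SORBI_3002G108800 had salt changes of -1.05 ± 0.25 in M-81E (limma adjusted p = 0.210) and -0.99 ± 0.25 in Roma (adjusted p = 0.197), close in size and with separate groups in both. Its difference between strains was 0.06 with an SE of 0.35 (n = 2 per group). The symporter SORBI_3003G336100 had 20.7 and 13.7 FPKM in Roma control and 33.7 and 35.6 in Roma salt, and overlapping values in M-81E, from 13.3 to 22. The pyrophosphatase SORBI_3004G068300 had 16.2 and 14.3 in Roma control and 31.6 and 30.5 in Roma salt, a change of 0.98 ± 0.20 that did not pass (adjusted p = 0.145). For the efflux genes SORBI_3003G327500 and SORBI_3010G216700, salt libraries were above controls in M-81E and below them in Roma. Their differences of the responses were -1.83 ± 0.49 and -1.46 ± 0.29 (adjusted p = 0.377 and 0.229).

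In the other classes, the SCF F-box gene SORBI_3003G378000 had 4.63 and 3.79 FPKM in M-81E control, 8.68 and 8.74 in M-81E salt, 3.84 and 3.30 in Roma control, and 7.34 and 8.54 in Roma salt. Salt libraries were above controls in both strains, by 0.90 ± 0.20 and 0.97 ± 0.20 (SE, n = 2 per group; limma adjusted p = 0.187 and 0.143). SORBI_3008G164800, a DNA-binding transcription factor, had 2.22 and 1.35 in M-81E control, 3.76 and 5.08 in M-81E salt, 1.16 and 0.745 in Roma control, and 2.06 and 3.27 in Roma salt, again separate in both strains. SORBI_3001G416600, annotated to UDP-rhamnose synthesis and auxin efflux, had 96.4 and 89.0 in Roma control and 147 and 179 in Roma salt, a change of 0.80 that did not pass (adjusted p = 0.211), beside 72.9 to 96.1 in M-81E. SORBI_3006G148100, annotated to auxin polar transport and the response to UV-B, had 8.86 and 8.17 in M-81E control and 4.18 and 6.04 in M-81E salt (-0.66, adjusted p = 0.361), beside 2.91 to 4.88 in Roma. The nitrate transporter gene SORBI_3001G302800 and the monooxygenase gene SORBI_3003G269500 had salt changes of -1.29 each in Roma and 0.22 and -0.03 in M-81E, none of which passed. Counting members whose groups were separate in both strains, 14 had salt above control in both (16.9%, beside 7.22% of all tested genes) and 9 had salt below control in both (10.8%, beside 9.41%). A further 7 were above in M-81E and below in Roma (8.43%, beside 4%), and 2 were below in M-81E and above in Roma (2.41%, beside 3.31%). These shares are a description.

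A second list of 254 genes holds every other gene whose GO annotation contains the word auxin. Of its 164 tested genes none passed for salt or the difference of the responses (limma). At an unadjusted p under 0.05, 19 had positive and 13 negative values in M-81E, 9 and 11 in Roma, and 6 and 11 in the difference. These are 19.5%, 12.2% and 10.4% of the list, beside 12.8%, 11.8% and 8.73% of all tested genes. Between strains 30 of the 164 passed in control, 19 higher and 11 lower in Roma, where 12.1% of all tested genes did. In salt 22 passed, 14 higher and 8 lower, where 8.42% of all tested genes did. Of the 83 tested members, 14 passed in control and 12 in salt.

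The peak comparison asked which members carry m6A peaks. All peaks, their annotation and their fold enrichment, the ratio of antibody to unenriched signal, are the authors' values from 1 list per group, so presence in 1 list and absence from another has no replicate check. The sources used here do not name the genome build of the coordinates. Peaks were listed for 62 of 143 members. Of the 83 members with a mean FPKM of at least 1, 43 had a peak in the M-81E control list, or 51.8% (exact 95% Clopper-Pearson interval 40.6 to 62.9), beside 47.7% of all such genes. In the M-81E salt list it was 45, or 54.2% (42.9 to 65.2), beside 49.4%. In the Roma control list it was 30, or 36.1% (25.9 to 47.4), beside 31%, and in the Roma salt list 54, or 65.1% (53.8 to 75.2), beside 57%. Each interval holds the share of all genes, and covers counting error only. The lists themselves hold 10219, 10255, 5949 and 12080 peaks, the same order as the members' 60, 64, 36 and 75.

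**Figure D4:**
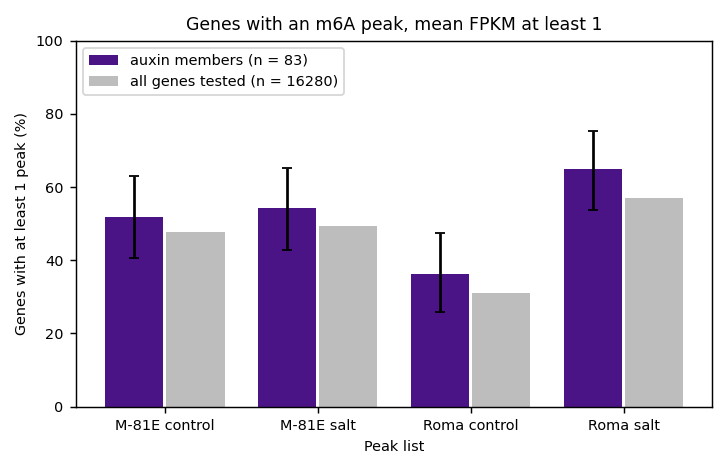
Share of genes with at least 1 m6A peak in each list, for the 83 tested auxin members (purple, with exact 95% intervals) and all 16280 tested genes (grey). Members and all genes rise and fall together over the lists, and Roma control is lowest in both, at 36.1% and 31%.

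The share with a peak was larger at higher expression in members and in all genes. Of members with a mean FPKM from 1 to 5, 11 of 21 had a peak in some list (52.4%, beside 38.9% of all genes at that level). From 5 to 20 it was 19 of 29 (65.5%, beside 74.6%), and from 20 upward 30 of 33 (90.9%, beside 88.1%). Members at that level with no peak included SORBI_3003G327500, the efflux gene that differed between strains, and SORBI_3005G140500, annotated as an aminopeptidase that binds the transport inhibitor naphthylphthalamic acid. Of all tested genes, 36.6% had no peak in any list, beside 27.7% of the tested members. The counts by role include members below the tested level. By role, 19 of 25 response factors, 4 of 5 receptors and 3 of 7 Aux/IAA repressors had a peak in some list. So did 6 of 14 efflux genes, 3 of 8 symporters and 4 of 7 pyrophosphatases. None of the 23 small auxin up RNA and organ growth genes did, 19 of which were below the tested level.

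Overlapping peaks of the lists formed 81 sites in these genes, with 1 site in 47 genes, 2 in 11 and 3 in 4. By the authors' annotation 63 sites lie in 3′ UTRs, 7 in 5′ UTRs and 10 in other exons, and 1, in SORBI_3008G156900, held a 5′ UTR peak in all 4 lists with an exon peak beside it in 2 of them. The share of member peaks in 3′ UTRs was 80%, 81.3%, 88.9% and 78.7% over the lists in the order M-81E control, M-81E salt, Roma control and Roma salt, beside 71.1%, 77.9%, 80.4% and 77.1% of all peaks. The median fold enrichment of member peaks was 10.3, 11.3, 11.9 and 19.9 in that order, beside 12.8, 12.9, 18.0 and 21.4. In the members, 5′ UTR peaks had the highest median fold, 42.7 (5.42 to 417), followed by 3′ UTR peaks at 13.6 (1.92 to 347) and exon peaks at 2.31 (1.38 to 18.3).

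**Figure D5:**
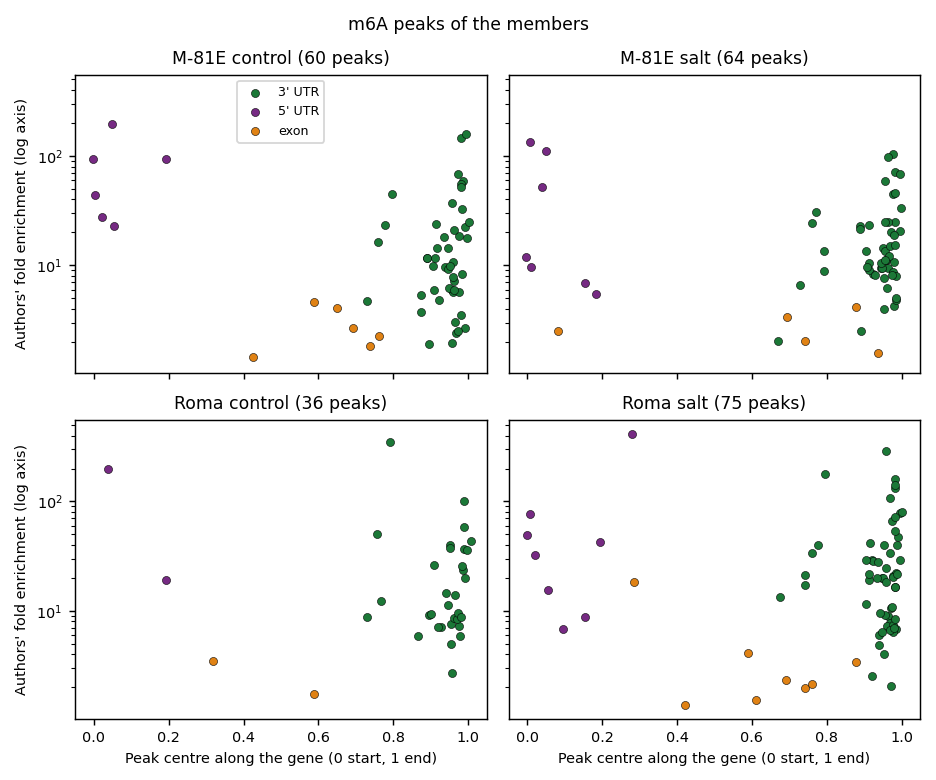
Authors' fold enrichment (log axis) of each member peak against the position of its centre along the gene, from 0 at the start to 1 at the end, in the 4 lists, coloured by annotated region. Most peaks sit near the gene end, a separate group of 5′ UTR peaks lies near the start, and exon peaks between them have low folds.

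Across lists, 29 of 81 sites were in all 4, or 35.8% beside 36.1% of the sites of all genes. A further 17 were in all but the Roma control list (21.0% beside 18.8%), and 14 were in the Roma salt list and no other (17.3% beside 13.1%). In M-81E, 47 sites were shared by the control and salt lists. They were 85.5% of the control sites and 79.7% of the salt sites, beside 81.7% and 81.8% for all tested genes. Their median log2 ratio of fold enrichment, salt over control, was 0.43, beside 0.12 for all genes. Of the 47 sites, 32 were higher in salt, beside 4141 of 7653 for all tested genes. In Roma 32 sites were shared, 97.0% of the control sites and 43.8% of the salt sites, beside 96.3% and 48.2% for all tested genes. Their median ratio was 0.73 beside 0.66, and 25 of 32 were higher in salt, beside 3999 of 5291. Since the lists differ in length and depth is not given, these ratios describe the lists.

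The Aux/IAA repressor SORBI_3008G156900 carried the strongest member peak of the Roma salt and M-81E control lists. This 5′ site, at chr8:58917629-58920544 in the coordinates of the files, had folds of 197 in M-81E control, 51.6 in M-81E salt, 199 in Roma control and 417 in Roma salt. The interval is the union over lists, and in each Roma list it includes a peak made of 2 blocks with a gap between them. It also takes in peaks annotated to exon 1 of 5, in M-81E salt (2.49) and Roma control (3.51). The gene's 3′ UTR site was weak, with folds of 1.97, 4.01, 2.70 and 4.05 in the same order. SORBI_3001G094800 carried a 5′ UTR site at chr1:7278990-7279227 with folds of 93.9, 5.42, 19.3 and 42.7, and a 3′ UTR site at chr1:7281219-7281576 with folds of 5.95, 14.5, 14.6 and 20.1. In M-81E the 5′ site had its high value in control and the 3′ site in salt. SORBI_3001G161601 had a 3′ UTR site of 5.65 in M-81E control, 9.38 in M-81E salt and 8.94 in Roma salt, and none in the Roma control list.

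Of the 20 tested response factors, 9 had a peak in all 4 lists, where 32.5% of the tested members and 27.5% of all tested genes did. SORBI_3003G411900 had a 3′ UTR site at chr3:71924109-71924467 with folds of 45.1 in M-81E control, 13.6 in M-81E salt, 347 in Roma control and 177 in Roma salt, the highest member fold in the Roma control list. Its 5′ UTR site had folds of 22.8, 112 and 15.5 in M-81E control, M-81E salt and Roma salt. SORBI_3005G132000 had a 5′ UTR site at chr5:57393579-57393758 with 94.7, 134 and 76.8 in those same 3 lists, the highest member fold of the M-81E salt list. SORBI_3004G051900 had a 5′ UTR site of 44.0, 11.9 and 49.6 there. None of these 3 sites was in the Roma control list, the shortest. SORBI_3010G073600 had a 3′ UTR site at chr10:6023717-6023986 with 32.7, 15.4, 101 and 142 over the 4 lists.

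The 7 exon sites of the response factors were weak, and 6 of them, in 5 genes, were annotated to the third exon from the transcript's end, a pattern noticed after the values were seen. They were exon 11 of 13 in SORBI_3003G411900 (folds 1.45 and 1.38 in M-81E control and Roma salt), SORBI_3007G203500 (1.53 in Roma salt) and SORBI_3010G073600 (4.61, 1.75 and 4.12 in M-81E control, Roma control and Roma salt). In SORBI_3004G051900 it was exon 12 of 14, with 1.83 in M-81E control, 2.03 in M-81E salt and 1.96 in Roma salt. SORBI_3010G253300 had a pair of sites in exon 12 of 14, with 2.69, 3.36 and 2.31 in those lists for the first, and 2.26 and 2.13 in M-81E control and Roma salt for the other. All 5 genes also had a 3′ UTR site in all 4 lists.

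Of the members that were called between strains, the response factor SORBI_3008G169400 had a 3′ UTR site at chr8:60367853-60368153 in the M-81E salt list (20.1) and the Roma salt list (65.9) and in neither control list, while its FPKM overlapped between control and salt in Roma. SORBI_3003G003800 (6.19 and 7.23), SORBI_3010G216700 (2.03 and 13.5) and SORBI_3005G126600 at its 5′ UTR (6.91 and 8.83) were likewise listed in M-81E salt and Roma salt alone. So were SORBI_3008G164800 (45.6 and 21.7) and SORBI_3001G008400, annotated as a water channel (10.7 and 6.77), whose mean FPKM was below 1. The exon site of SORBI_3007G098500 (4.16 and 3.38) was the last of this kind. These sites are 7 of the 81 member sites, or 8.64%, beside 6.4% of the sites of all tested genes. The receptor SORBI_3004G305400 was the 1 member listed in both control lists, at 3.72 and 5.94, and in neither salt list. SORBI_3002G108800, the symporter with the lower level in Roma, had no peak in any list.

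The transport and other signalling genes were marked mostly at 1 site in the 3′ UTR. The efflux transporter SORBI_3001G415300 had folds of 58.7 in M-81E control, 25.1 in M-81E salt, 58.5 in Roma control and 132 in Roma salt at chr1:69694009-69694308. The efflux gene SORBI_3004G240900 had 23.7, 23.3, 26.3 and 19.0, while its FPKM ran from 3.61 to 47.3. The symporter SORBI_3003G336100 had 14.4, 13.6, 11.3 and 39.9. SORBI_3007G053500, annotated to root meristem growth and embryo sac development, had 5.92, 58.4, 14.0 and 288 at chr7:5420460-5420815, higher in salt than in control in each strain, while its FPKM was 59.6 to 93.2. SORBI_3009G104100, annotated to a phase transition of the cell cycle and to cell division, had 4.70, 6.64, 8.70 and 17.4, with FPKM from 40.0 to 90.9. SORBI_3007G044300, annotated as a nitrate transporter, had 146, 104, 25.7 and 159. SORBI_3007G098500, a gene of unidimensional cell growth and auxin polar transport, had 158, 68.2 and 78.5 at its outer 3′ UTR site in every list but Roma control. The pyrophosphatases SORBI_3010G060600 and SORBI_3003G155000 had 9.88, 13.4, 9.28 and 28.9, and 11.7, 22.9, 40.3 and 29.0, although their mean FPKM was 183 and 3.90.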

How the data were processed

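Roots of M-81E and Roma under control and salt were profiled by m6A-seq with strand-specific libraries, per the labels' protocols. Per the file headers, the deposited expression values are FPKM in 1 column per library. The fold enrichment of a peak is the authors' ratio of antibody over unenriched signal, per the file headers. The deposited lists also give a p-value per peak, and score columns that hold log10 of this value and log10 of the false discovery rate. Tools named without roles in the submitters' processing notes are cutadapt, FastQC, HISAT2, ChIPseeker, StringTie and edgeR. The sources used here do not give the peak caller, the pooling of replicates for peaks, the genome build, the annotation or the sharing of reads between copies. Read depth was not used, so no interval was given for FPKM.

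The members and gene lists were chosen with earlier results of these data known. Roles were read from the GO and KEGG orthology columns, because all but 2 of 143 members are described as hypothetical proteins and the RefSeq gene table held no match by ID; KEGG entries that name unrelated enzymes were passed over for GO. Differences in log2(FPKM + 1), computed here, were fitted in R 4.3.3 with limma 3.58.1 over the 16280 genes whose mean FPKM reached 1 over 8 libraries. The fit had 1 mean per group, a common spread, eBayes with a trend and Benjamini-Hochberg adjustment over all genes at 0.05. In simulated data it recovered 14%, 38%, 78% and 88% of Roma salt changes with a log2 of 1, 2, 3 and 4. There 4 of 113 calls were false. The fit compared salt with control within each strain, the difference of these responses, and Roma with M-81E in control and in salt. P-values and SEs rest on 1 spread per gene, pooled over the 2 libraries of every group and moderated by eBayes. A contrast within Roma therefore also uses the spread between the M-81E libraries. Peaks were assigned by the authors' gene column and merged into sites where they overlapped by at least 1 base on the same chromosome and strand; a site with several peaks in a list, or listed for several transcripts, was counted once. Intervals are exact 95% Clopper-Pearson. Python 3.11.15, pandas 2.3.3, numpy 2.4.6, scipy 1.17.1 and matplotlib 3.10.9 were used.

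Genes named in the text are all members past the threshold, up to 5 each way per contrast by size at an unadjusted p under 0.05, with a mean FPKM of at least 2 and separate groups, the 3 most abundant of each role, the 3 strongest peaks of each list, and up to 10 members with peaks in all 4 lists or in 1 treatment of both strains. A few others were chosen after their values were seen: members with high expression and no peak, a symporter listed at 0, steady response factors, neighbours in the numbering, and the response factors with exon sites. Alternatives were another pseudocount, other filters, rescaling, quantile scaling, a replicate block, robust eBayes, fits of 2 groups, each library left out, and stricter peak thresholds.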

Additional observations from a re-analysis of the deposited data

How the results depend on the processing

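With 2 libraries per group the counts of calls depended on single libraries. Leaving out each library in turn gave 0 to 15 members for salt in M-81E, 0 to 2 for salt in Roma, 0 to 3 for the difference of the responses, 3 to 23 between strains in control and 1 to 27 between strains in salt. Where a group is left with 1 library, it is assumed to vary like the other groups. Between strains in control the counts were 22 and 23 without M-81E control replicates 1 and 2, 3 and 5 without Roma control replicates 1 and 2, and 7 without either Roma salt library. Between strains in salt they were 27 without either M-81E control library, 1 and 5 without M-81E salt replicates 1 and 2, 3 and 2 without Roma control replicates 1 and 2, and 1 without either Roma salt library. The number of all tested genes passing between strains moved the same way as the members each time. In both contrasts it rose when an M-81E control library was dropped and fell when any other library was dropped. These swings are therefore not particular to the members. With only the groups of a contrast fitted, 1 member passed for salt in Roma, against 0, and 0 between strains in control, against 14. Over all tested genes 217 passed for salt in Roma, against 77, and 296 between strains in control, against 1971. The spread then comes from the libraries of those groups alone, and the cause of these changes was not tested. Between strains in salt, 6 passed with a filter at FPKM 5, which tests fewer genes, and 7 with quantile scaling, against 12; the cause of the latter was not tested.

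The labels do not say whether equal replicate numbers pair the libraries. Differences between replicates 1 and 2 correlated across genes by -0.0376 to 0.0384 between groups. These values show no strong shared shift but cannot tell whether samples were handled in pairs. With a replicate block 6 members passed between strains in salt and 10 in control, and 0 for salt in either strain or for the difference. Of the 26 calls of a gene in a strain contrast, 26 were kept with robust eBayes, 22 with a pseudocount of 0.1, 21 with no filter, 19 with rescaling, 16 each with quantile scaling and the block, and 8 with only the groups of the contrast; over the left-out libraries 105 of 208 were kept. Of the 26, 9 passed under more than 12 alternatives and 12 under fewer than 9. SORBI_3002G108800 passed in salt under 16 of 16 alternatives and in control under 15 of 16, and SORBI_3003G327500 and SORBI_3003G269500 passed in control under 15 of 16. SORBI_3003G327500 in salt passed under 8 of 16, SORBI_3005G126600 in salt under 5 of 16, SORBI_3002G292100 in salt and SORBI_3004G345600 in control under 3 of 16, and SORBI_3001G217300 in control and SORBI_3003G251700 in salt under 4 of 15. No recomputed gene difference, of those called and those named for their size at an unadjusted p under 0.05, changed sign under these alternatives. With a fold enrichment of at least 4, 37, 45, 30 and 54 members had a peak in the M-81E control, M-81E salt, Roma control and Roma salt lists, against 43, 47, 30 and 55. Requiring an overlap of 50% left 47 and 32 shared sites in M-81E and Roma. Assigning peaks by gene interval was not run, since the expression table gives no coordinates. Missing read depth limits what can be said of members with low FPKM and of peaks absent from the Roma control list.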

Other observations

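Members carrying a 5′ UTR site were signalling genes: 2 Aux/IAA repressors, 4 response factors, 1 receptor and the protein kinase SORBI_3002G386800, whose 5′ UTR site had folds of 27.7 in M-81E control, 9.73 in M-81E salt and 32.2 in Roma salt. No efflux transporter, symporter, pyrophosphatase or other polar transport gene had a 5′ UTR site in these lists. The pattern was noticed after the values were seen, and was not tested.

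Of the 60 members with a mean FPKM under 1, 2 had a peak. They were SORBI_3001G008400, described above, and the response factor SORBI_3006G045901, with a fold of 8.84 in the M-81E salt list. SORBI_3006G045901 had an FPKM of 0 in all 4 Roma libraries and 0.636 to 1.71 in M-81E. A 0 in some library was listed for 34 of the 143 members, and for none of the members that differed between the strains. The pyrophosphatases SORBI_3003G155000 and SORBI_3010G060600 had nearly the same interval listed more than once in a list, while SORBI_3004G178500 in M-81E control and SORBI_3008G156900 in M-81E salt and Roma control had separate peaks within 1 site.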
